A study of Mus musculus with 1 sample.

Results

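Heat shock proteins are molecular chaperones that hold unfolded or damaged proteins and help them to fold. The genes described here are 10 chaperone genes in alveolar macrophages (AMs, the resident macrophages of the lung airspaces): Hspa1a, Hspa1b, Dnajb1, Hsph1 and Hsp90aa1, grouped as inducible, and Hspa8, Hsp90ab1, Hspa5, Hspe1 and Hspd1, grouped as constitutive. They were taken by name, by a rule that uses no measured value, though earlier results of these data were known when the list was drawn up. All 10 were among the 11918 genes listed. The study profiled AMs by single-cell RNA-seq to ask how heterogeneous they are and what loss of the histone deacetylase Hdac3 does to them, and the library analysed here is the WT one. It came from 1 adult mouse of 8 to 12 weeks, of genotype Hdac3fl/fl without Cre, with an FVB/NJ background crossed back to C57BL/6, so both Hdac3 alleles are floxed and intact. CD45+CD11c+SiglecF+ cells were sorted from minced, collagenase-treated lung, and 5000 were loaded on a 10x Genomics droplet assay that counts the ends of transcripts as unique molecular identifiers (UMIs). A single mouse allows no test between samples, so levels, folds and shares below carry 95% intervals that cover counting error only, and spread over cells is described without p-values.

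Cells answer heat and other stresses that unfold proteins through heat shock factor 1 (HSF1), which binds repeats of a short motif, the heat shock element, and turns on chaperone genes such as Hspa1a and Hspa1b. The constitutive chaperones serve folding in cells at rest: Hspa8 and Hsp90ab1 in the cytosol, Hspa5 (BiP) in the endoplasmic reticulum (ER), and Hspd1 with its lid Hspe1 in mitochondria. Immediate-early genes are a separate set, in which transcription factors such as Fos, Junb and Egr1 and regulators such as Dusp1 and Zfp36 are transcribed within minutes of a stimulus without new protein synthesis. Both sets are known to respond to disturbance of cells, which is why the chaperones were read here against immediate-early level. Hsp90aa1 is also transcribed in unstressed cells, and it was placed among the inducible genes as the stress-responsive form of cytosolic HSP90.

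The library held 2055 cells with 1143 to 8603 UMIs per cell (median 3278), and 7222978 UMIs in all. All 12 AM markers in the list used, such as Chil3 and Mrc1, had a UMI in at least 31.7% of cells, while B cell, endothelial and interstitial macrophage markers were at or below 0.535% of cells. Among lung epithelial markers, Sftpc, a surfactant gene of alveolar type II cells, had a UMI in 6.86% of cells and Scgb1a1, a club cell gene, in 5.50%. The neutrophil gene S100a8 had one in 10.1%, and Epcam in 58.1%. No cell type that should lack chaperones was in the sort. The shares of Sftpc, Scgb1a1 and S100a8 therefore stand in for a background of free RNA, which was not tested. Epcam is left out of this background, because it had 2178 UMIs against 172 for Sftpc and 148 for Scgb1a1, and its source was not tested. Mitochondrial transcripts exceeded 5% of UMIs in 384 cells, although the described filter removes such cells. These shares are of the UMIs deposited, from which ribosomal and other genes had been removed, and the authors' total may have been larger.

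The genes lie on 7 chromosomes (GRCm38 coordinates, GENCODE annotation). Hspa1a (chromosome 17, 34969190 to 34972156, minus strand) and Hspa1b (chromosome 17, 34956436 to 34959238, minus strand) are neighbouring copies 9951 bases apart. Both encode inducible HSP70. Hspd1 (chromosome 1, 55077835 to 55088243, minus strand) and Hspe1 (chromosome 1, 55088132 to 55091307, plus strand) face away from each other and overlap by 112 bases at their starts. The others are Dnajb1 (chromosome 8, 83608193 to 83612653, plus strand), Hsph1 (chromosome 5, 149614287 to 149636376, minus strand), Hsp90aa1 (chromosome 12, 110690605 to 110702728, minus strand), Hspa8 (chromosome 9, 40800984 to 40810087, plus strand), Hsp90ab1 (chromosome 17, 45567775 to 45573271, minus strand) and Hspa5 (chromosome 2, 34771970 to 34777547, plus strand).

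The promoters are shown for their sequence: the 2 Hspa1 copies have nearly the same one, and those of Hspd1 and Hspe1 overlap. Whether promoter sequence bears on how these genes vary over cells was not tested. RefSeq promoters (GRCm38.p6) matched 7 of the 10 genes, all but Hsp90aa1, Hspa8 and Hsp90ab1. The 250 bases before the start of Hspa1a (chr17:34972157-34972406, minus strand) and of Hspa1b (chr17:34959239-34959488, minus strand) were identical at 247 positions and differed at 3. They are written from 5′ to 3′ on the gene's strand, and the capitals mark a heat shock element of 2 units.
Hspa1a: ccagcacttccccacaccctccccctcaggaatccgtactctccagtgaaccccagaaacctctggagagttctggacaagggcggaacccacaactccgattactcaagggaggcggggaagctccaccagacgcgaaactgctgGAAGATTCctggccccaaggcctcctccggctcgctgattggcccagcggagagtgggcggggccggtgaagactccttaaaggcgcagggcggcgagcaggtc
Hspa1b: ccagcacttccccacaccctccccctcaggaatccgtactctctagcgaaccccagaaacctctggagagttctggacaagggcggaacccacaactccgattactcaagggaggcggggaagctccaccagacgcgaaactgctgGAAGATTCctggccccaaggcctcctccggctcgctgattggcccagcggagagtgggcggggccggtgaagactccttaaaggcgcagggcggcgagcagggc
Each search covered the bases before the start and a short stretch past it (chr17:34972107-34972406 for Hspa1a). The 2-unit element (GAANNTTC, or TTCNNGAA in the other order, both strands) begins 104 bases before the start in each copy. In either order, 15.1% of the 32851 RefSeq promoters hold one in this longer window. An element of 3 perfect units (GAANNTTCNNGAA, both strands, which contains the 2-unit letters) was found in 0.603% of promoters. Hspd1, Hspe1 and Hsph1 were the matched members that held it, and in Hsph1 it lay past the start. The letters of the 3-unit element were not found in the window of either Hspa1 copy.
The window where the promoters of Hspd1 and Hspe1 overlap lies inside the annotated Hspd1 gene. In it, 2 overlapping 3-unit elements began 89 and 84 bases before the start of Hspe1. Together they form an unbroken run of 4 units that opens with TTC, an order not searched over all promoters. On the other strand they began 144 and 139 bases before 1 of the 2 RefSeq starts of Hspd1, and the window of its other start held no heat shock element. Their 30-base surroundings (chr1:55088053-55088082, written on the plus strand) and that of the ER stress response element of Hspa5 (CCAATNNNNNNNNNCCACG, in 0.119% of promoters, chr2:34772020-34772049, plus strand) are given with the elements in capitals.
Hspe1: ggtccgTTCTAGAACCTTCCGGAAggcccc
Hspa5: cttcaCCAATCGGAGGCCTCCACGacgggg
The ER stress response element, through which the unfolded protein response reaches its targets, began 65 bases before the start of Hspa5 and was found in no other matched member. The site of the Fos and Jun dimer AP-1 (TGANTCA, 7.81% of promoters) occurred in 1 matched member, Hspa5, 182 bases before its start. These matches are letters in a window and say nothing of what bound there.

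Levels separated the 2 groups except at Hsp90aa1. Because each UMI comes from a transcript end and does not scale with transcript length, levels are compared between genes as UMIs per 10000 UMIs of the library. Hspa8, the constitutive HSP70, was highest at 16.1 UMIs per 10000 (15.8 to 16.4) and ranked 81 among all genes. Hsp90ab1, the constitutive HSP90, followed at 9.78 (9.56 to 10.0), then Hspa5 at 7.81 (7.61 to 8.02). Hsp90aa1 stood at 5.36 (5.19 to 5.53), above Hspe1 at 4.34 (4.19 to 4.49) and Hspd1 at 1.64 (1.55 to 1.74). The intervals of these 6 genes did not overlap. The 4 other inducible genes were lowest: Hspa1b at 1.04 (0.968 to 1.12), Hspa1a at 0.694 (0.634 to 0.757), Dnajb1 at 0.577 (0.523 to 0.635) and Hsph1 at 0.436 (0.389 to 0.487). Dnajb1 is the J-domain protein that hands clients to HSP70, and Hsph1 (HSP110) is its nucleotide exchange factor. The intervals of Hspa1a and Dnajb1 overlapped at their ends, and those of the other neighbours in the order did not. Summed, the inducible genes came to 8.11 UMIs per 10000, of which Hsp90aa1 held most, and the constitutive genes to 39.7.

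**Figure D1:**
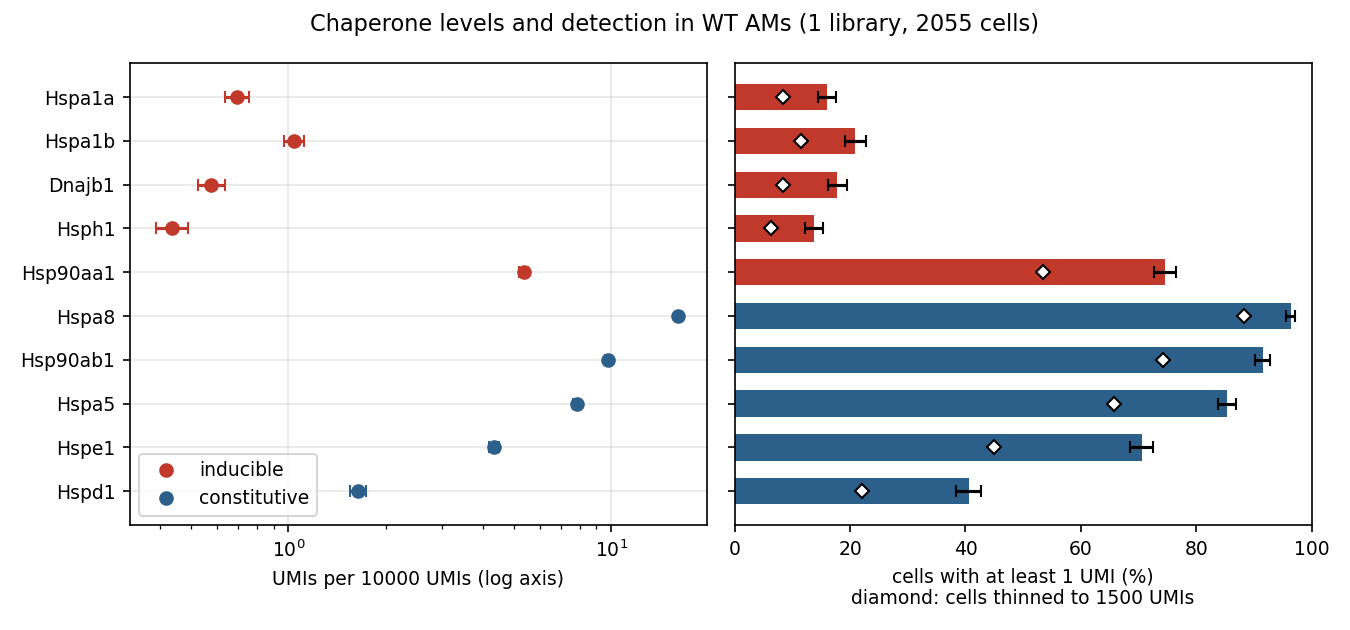
Left, level of each chaperone in UMIs per 10000 UMIs (log axis) with 95% Poisson interval; right, percent of the 2055 cells with at least 1 UMI with 95% exact binomial interval, and diamonds for the 1946 cells thinned to 1500 UMIs each. Hspa1a, Hspa1b, Dnajb1 and Hsph1 (red) lie left of all constitutive genes (blue), while Hsp90aa1, at 5.36, lies between Hspa5 and Hspe1.

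Detection followed level. Hspa8 had a UMI in 96.4% of cells (95.5 to 97.2%, exact binomial), with 0 to 32 UMIs in a cell and a median of 5. Hsp90ab1 was detected in 91.5% of cells with up to 17 UMIs, Hspa5 in 85.3% with up to 17, Hsp90aa1 in 74.6% with up to 14, Hspe1 in 70.6% with up to 9 and Hspd1 in 40.5% with up to 4. The rarer inducible genes had UMIs in 20.9% (Hspa1b), 17.8% (Dnajb1), 16.0% (Hspa1a) and 13.7% (Hsph1) of cells. When each of the 1946 cells with at least 1500 UMIs was thinned to that number, the shares became 11.6% for Hspa1b, 8.32% for Hspa1a and for Dnajb1, and 6.27% for Hsph1. Before thinning, the shares of these 4 genes were above those of S100a8 (10.1%) and Sftpc (6.86%). What part of these shares is free RNA was not tested.

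Hspa1a and Hspa1b UMIs were concentrated in a minority of cells, whereas Dnajb1 and Hsph1, at lower levels, were in nearly as many cells as depth alone would give. Hspa1b had 1 UMI in 263 cells, 2 in 95, 3 in 35, 4 in 14 and at least 5 in 22, with a highest cell of 12. Hspa1a had 1 UMI in 238 cells, 2 in 52, 3 in 19, 4 in 8 and at least 5 in 11, with a highest cell of 10. Dnajb1, with 417 UMIs against 501 for Hspa1a, had 1 UMI in 321 cells, 2 in 40, 3 in 4 and 4 in 1, and none had 5. Hsph1 reached 3 UMIs in 2 cells. If the UMIs were spread in proportion to cell depth alone, 613 cells would hold Hspa1b and 436 would hold Hspa1a. The cells that did were 429 and 328. For Dnajb1 the corresponding numbers were 371 and 366, and for Hsph1 288 and 281.

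The same contrast was measured as a dispersion, which is 0 for a gene whose cell-to-cell variance is that of counting and rises with added spread. Over 4301 genes with at least 200 UMIs its median was 0.122, and the middle 50% of genes lay between 0.0385 and 0.271. Hspa1a had a dispersion of 3.85, above 99.1% of these genes, and Hspa1b of 3.25, above 99.0%. Leaving out the 1% of cells with most of the gene lowered these to 1.99 and 1.91. The other inducible genes were at 0.340 (Hsph1, above 81.4% of genes), 0.197 (Hsp90aa1) and 0.151 (Dnajb1), and without the 1% of cells with most of the gene Hsph1 and Dnajb1 fell below 0. The constitutive genes ranged from 0.0468 (Hspe1) to 0.191 (Hspa5), with Hspd1 at 0.0647, Hsp90ab1 at 0.0857 and Hspa8 at 0.102. Spread thus set the 2 HSP70 copies apart from all other members, while Hsp90aa1 and Dnajb1 lay within or next to the range of the constitutive genes and Hsph1 lay above it.

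**Figure D2:**
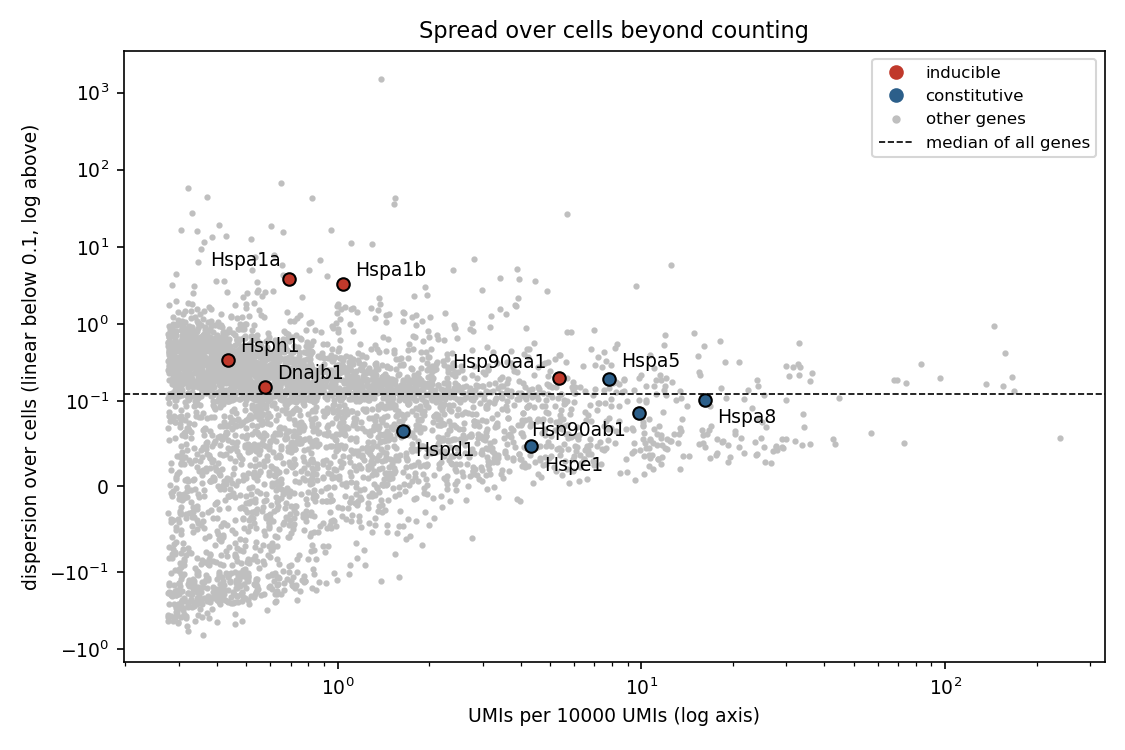
Dispersion over cells (linear below 0.1, log above) against level in UMIs per 10000 UMIs (log axis) for 4301 genes with at least 200 UMIs in grey, with the chaperones in colour and the median of all genes, 0.122, dashed. Hspa1a at 3.85 and Hspa1b at 3.25 stand above the other 8 chaperones, which lie between 0.0468 and 0.340.

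Hspa1a and Hspa1b were found in the same cells more often than depth accounts for. UMIs of both were present in 145 cells, where 78.5 would be expected if they were independent among cells of like depth (10 bins of depth). Hspa1b had a UMI in 44.2% of the 328 cells with Hspa1a and in 16.4% of the cells without. For Hspd1 and Hspe1, the mitochondrial pair with overlapping promoters, 645 cells held both against 633 expected. Hspa1b and Dnajb1 shared 97 cells against 86.3 expected, Hspa1b and Hsph1 78 against 65.6, and Dnajb1 and Hsph1 61 against 56.1. The copies share 1363 98-base sequences (98 bases is the read length), which is 47.5% of those in the Hspa1a transcript, but none in the last 300 bases, where 3′ reads are expected. No 98-base sequence in the last 300 bases of either copy occurred in any other gene. How far reads assigned to the wrong copy contribute was not tested.

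Correlations of the log values over the 2055 cells, which share a library and differ in depth, gave the same picture. The highest of the 45 pairs was Hspa1a with Hspa1b (r = 0.289), and the next were Hspa1b with Hsp90aa1 (0.125), Hspa8 with Hsp90ab1 (0.119) and Hspa1b with Hsp90ab1 (0.0984). The median r was 0.0509 over the 10 inducible pairs, 0.0641 over the 10 constitutive pairs and 0.0434 over the 25 mixed pairs. It was 0.00804 over all 8090253 pairs of genes detected in at least 10% of cells, which were not matched to the members for level. With cells thinned to 1500 UMIs, the medians were 0.0271 for inducible, 0.0159 for constitutive and 0.0250 for mixed pairs. Apart from the HSP70 copies, the inducible pairs lay between 0.00647 and 0.125 and the mixed pairs between -0.0112 and 0.0984, so these ranges overlapped. Dnajb1 had an r of 0.00647 with Hspa1a. The inducible and constitutive sums correlated at r = 0.102. Each sum also correlated with the log of UMIs per cell (r = 0.194 for the inducible and 0.107 for the constitutive sum), and values this low in sparse counts are descriptions only.

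**Figure D3:**
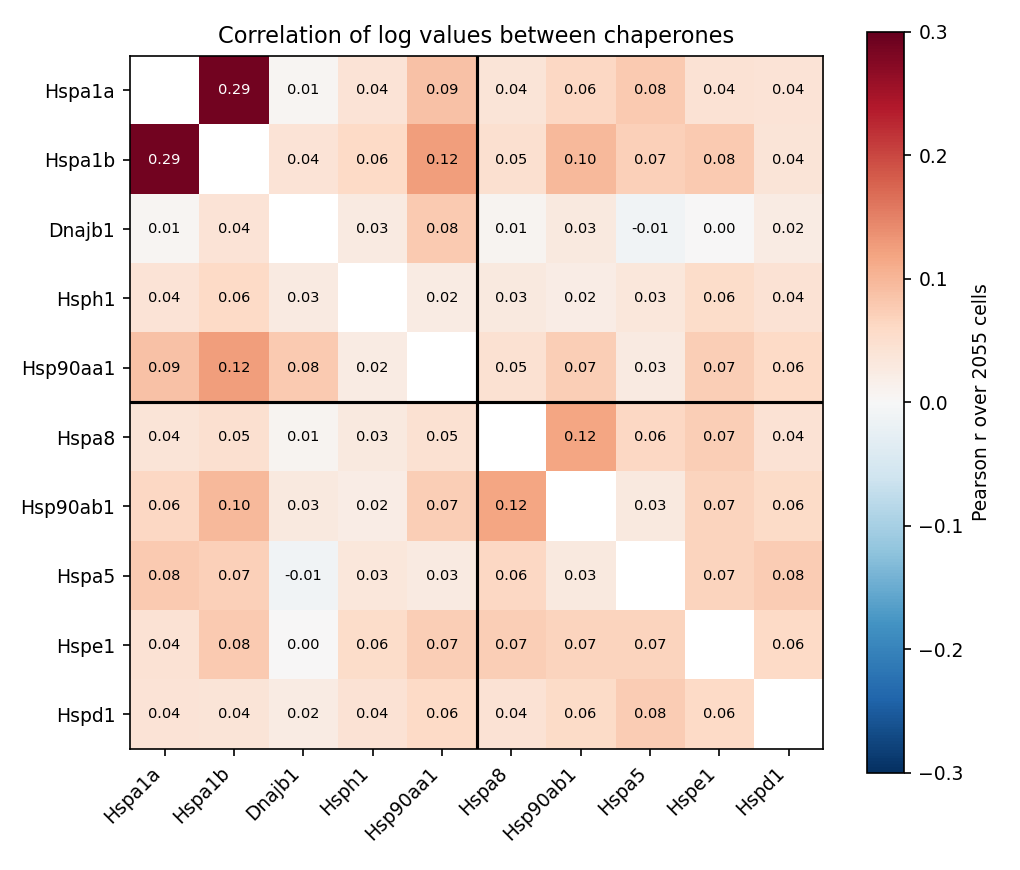
Pearson r over 2055 cells between the log values of each pair of chaperones, with inducible genes before and constitutive genes after the black lines. Hspa1a with Hspa1b, at 0.289, is the darkest square, and no other pair exceeds 0.125.

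The relation to immediate-early genes was then measured. The 17 immediate-early genes listed, of 18 in the list, were summed per cell, and the 685 cells with the highest sum per 10000 UMIs (IEG-high) were set against the 685 with the lowest (IEG-low). Their summed immediate-early level was 95.6 and 28.5 UMIs per 10000. Median depth was 3032 UMIs in IEG-high and 3367 in IEG-low cells, and the median mitochondrial share was 3.13% and 3.41%. A fold of at least 1.5, among genes with at least 200 UMIs, was used as the limit.

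Inducible HSP70 was higher in IEG-high cells, and most other chaperones differed little. Hspa1b stood at 0.518 UMIs per 10000 in IEG-low, 1.06 in the 685 cells between and 1.57 in IEG-high cells, a 3.03-fold difference (log2 1.60, 1.30 to 1.90). Hspa1a stood at 0.427, 0.630 and 1.04, which is 2.44-fold (log2 1.29, 0.95 to 1.63). Both levels were higher at each step, and their intervals in IEG-high and IEG-low cells did not overlap. Past the limit upward were 2 of 5 inducible and 0 of 5 constitutive genes, while over 4284 genes 3.99% passed it upward and 1.19% downward. No member passed downward.

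Dnajb1 had a log2 fold of 0.43 (0.08 to 0.79), and its levels were 0.501 in IEG-low and 0.678 in IEG-high cells. Hsph1 had a log2 fold of 0.18 with an interval on both sides of 0 (-0.24 to 0.60). Hsp90aa1 had 4.99 and 5.81 UMIs per 10000, a log2 fold of 0.22 (0.11 to 0.33). Hspa5, at 7.17 and 8.48, had a log2 fold of 0.24 (0.15 to 0.34), Hspa8 of 0.12 (0.06 to 0.19) and Hsp90ab1 of 0.11 (0.03 to 0.20). Of the mitochondrial pair, Hspe1 stood at 4.47 in IEG-low and 4.01 in IEG-high cells (log2 -0.16, -0.28 to -0.03), and Hspd1 had a log2 fold of -0.04 (-0.24 to 0.17). With cells thinned to 1000 UMIs and grouped anew, Dnajb1 (-0.26), Hsph1 (-0.43) and Hspe1 (0.02) had the other sign, and at 1500 UMIs Hspd1 (0.23) had, so the directions of these 4 are not settled. Hsph1 (-0.06) and Hspd1 (0.11) also had the other sign with all cells split at the median immediate-early level, and Hspd1 (0.03) among cells in a middle range of detected genes. As groups, the inducible sum had a log2 fold of 0.48 (0.39 to 0.58) and the constitutive sum of 0.11 (0.07 to 0.15). Without Hsp90aa1 the inducible sum had 1.02 (0.85 to 1.19), so where Hsp90aa1 is counted moves the group value by more than 1.5 times. The median over the 5 inducible genes was 0.43 and over the 5 constitutive genes 0.11, beside 0.03 over all genes.

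**Figure D4:**
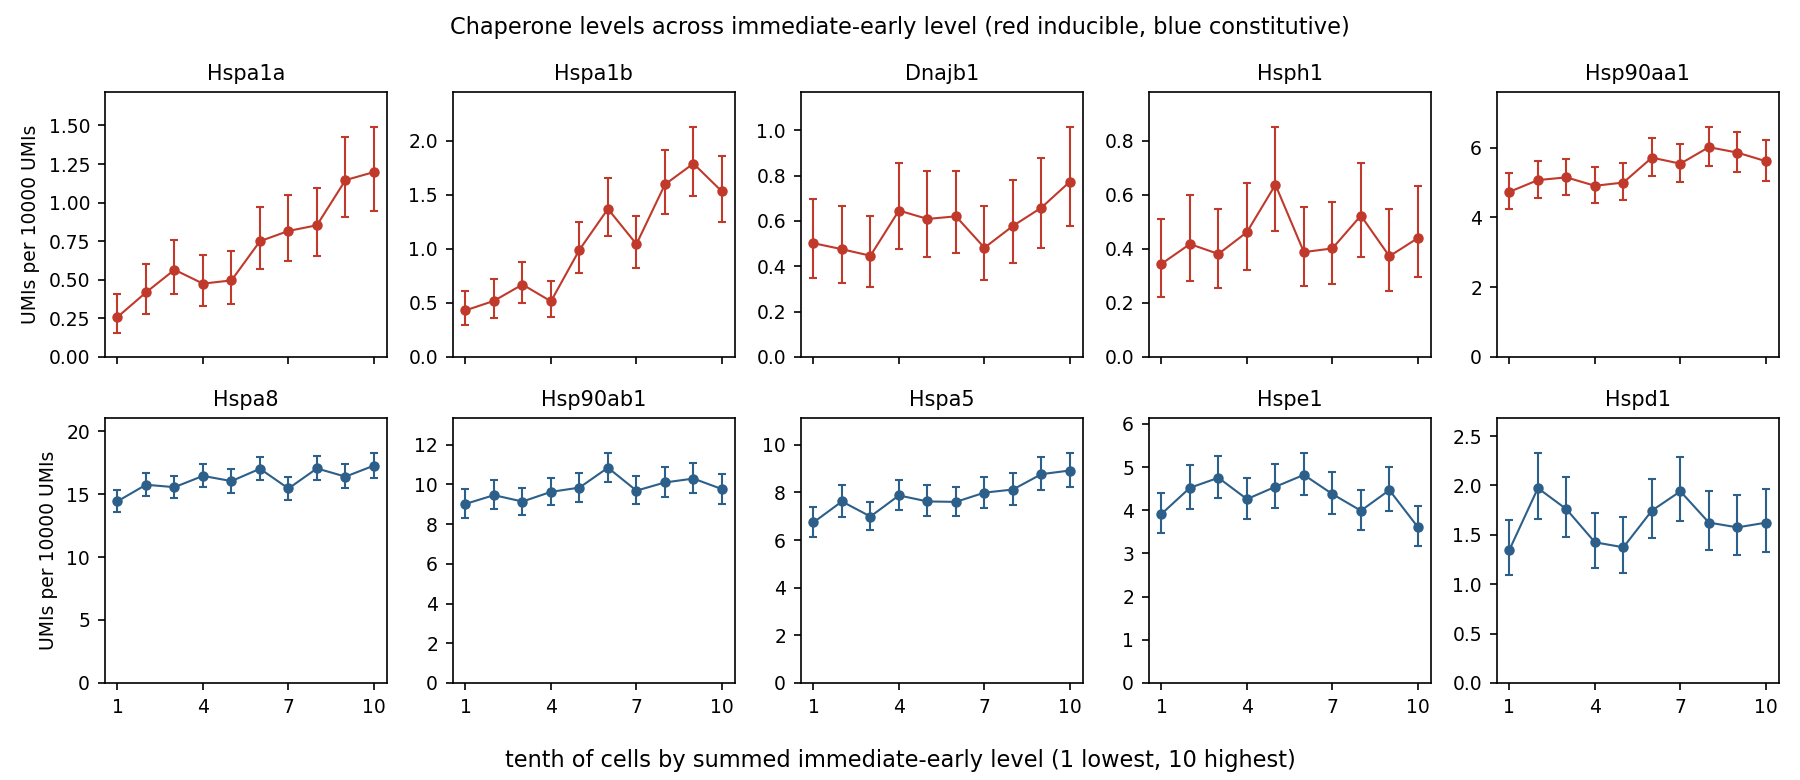
Level of each chaperone (UMIs per 10000 UMIs, with 95% Poisson interval) in 10 groups of 205 or 206 cells ordered by summed immediate-early level, red for inducible and blue for constitutive genes; each panel has its own axis from 0. Hspa1a goes from 0.258 in the lowest group to 1.20 in the highest and Hspa1b from 0.430 to 1.53, while Hspa8 goes from 14.4 to 17.3 and Hspe1 from 3.91 to 3.61.

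The level of Hspa1a and Hspa1b changed over most of the order of cells, though not evenly. In 10 groups of cells ordered by immediate-early level, their summed level was 0.688 UMIs per 10000 in the lowest group, between 0.936 and 1.49 in the next 4, between 1.86 and 2.45 in the 3 after them, 2.94 in the ninth and 2.73 in the highest. Among cells of like depth the fold of this sum between IEG-high and IEG-low cells was 2.52 in the shallowest cells (1143 to 2666 UMIs), 3.27 in the middle ones and 2.58 in the deepest (3933 to 8603 UMIs). Among cells of like mitochondrial share it was 2.26 in the lowest, 2.91 in the middle and 3.12 in the highest. The difference was thus present in each depth and mitochondrial range. With every cell thinned to 1500 UMIs and grouped anew, Hspa1b kept a log2 fold of 1.27 and Hspa1a had 0.60, which is just past the limit. In the same thinned cells of the original groups, 16.8% of IEG-high and 6.58% of IEG-low cells had a UMI of Hspa1b, against 28.3% and 13.0% before thinning.

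Over single cells, Hspa1b had the highest correlation with the summed immediate-early level among the members (r = 0.181, above 99.1% of 4006 genes). Hspa1a (0.122, above 98.0%) and Hspa8 (0.0804, above 95.9%) followed. These ranks are among genes not matched for level. By fold between IEG-high and IEG-low cells, Hspa1b was above 99.8% of genes, Hspa1a above 99.6% and Hspa8 above 62.8%. Hspe1 (-0.0153) and Hspd1 (-0.00142) were near the median of all genes, 0.00375. By single immediate-early gene, the sum of Hspa1a and Hspa1b correlated most with Dusp1 (r = 0.142), a phosphatase that switches off MAP kinases, Junb (0.142), an AP-1 subunit, and Zfp36 (0.138), which binds AU-rich messages for decay. The lowest was Klf4 (0.00847).

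The comparison was also turned round. In cells thinned to 1500 UMIs, 345 had a UMI of Hspa1a or Hspa1b and 1601 had none, with median depths before thinning of 3532 and 3354. Of the 8 other members 6 passed the minimum of 200 thinned UMIs and 0 of these passed 1.5-fold in either direction, beside 0.284% of 2116 genes upward and 0.992% downward. Hspe1 had a log2 fold of 0.33 (0.12 to 0.53), Hsp90aa1, at 6.13 against 5.27 UMIs per 10000, of 0.22 (0.04 to 0.40) and Hsp90ab1 of 0.19 (0.06 to 0.33). Hspa8 (0.06) and Hspa5 (0.01) had intervals that included 0. The 2 members below the minimum were Dnajb1, with 28 and 141 thinned UMIs and a log2 fold of -0.12 (-0.76 to 0.48), and Hsph1, with 28 and 99. Hsph1 had the highest fold of the 8 (log2 0.39, -0.27 to 1.01), and it ranged from 0.07 to 0.81 under the alternatives. Hspd1 had 0.32 in this draw of UMIs and -0.03 in another draw, and Hspa5 had 0.30 in that draw, so no order of these folds is read. Summed immediate-early level was 68.6 UMIs per 10000 in the cells with HSP70 and 56.9 in those without (log2 0.27, 0.22 to 0.32). That fold was above those of 91.8% of the 2116 genes. By gene, Fos (log2 0.32), Junb (0.31), Zfp36 (0.33), Dusp1 (0.29), Egr1 (0.42), Btg2 (0.41), Nr4a1 (0.25) and Rhob (0.37) had intervals above 0. The intervals of Fosb, Jun, Egr2, Atf3, Ier2, Ier3, Klf6 and Gadd45b included 0, as did that of Klf4 (-0.01, -0.33 to 0.31). The share of all genes with an interval above 0 is not given here, so these genes are listed as a description only.

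Other genes of the heat shock pathway were compared between the same IEG-high and IEG-low cells, where 3.99% of all genes passed the limit upward and 1.19% downward. Of 17 other HSF1 targets, 15 were listed and 11 had at least 200 UMIs. Among these Bag3, the co-chaperone that links HSP70 to autophagy, was higher at 0.397 against 0.166 UMIs per 10000 (log2 1.26, 0.71 to 1.83), and Fkbp4, an HSP90 co-chaperone, was lower (log2 -0.70, -1.04 to -0.37). Ubb, which encodes ubiquitin, had a log2 fold of -0.29 (-0.36 to -0.22). Dnaja1, another J-domain partner of HSP70, had 0.15 (-0.01 to 0.32). The median over the 11 was 0.11. Of 12 HSP70 and HSP90 co-chaperones with enough UMIs 0 passed the limit in either direction, with the 3 most abundant, Ptges3 (p23), St13 and Dnajb6, at 0.04, 0.09 and 0.11. Hsf1 itself had 67 UMIs in the library, in 3.26% of cells, too few to compare.

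Chaperones of other compartments were read against the same shares of all genes, at which lists of this size would hold few or no genes past the limit. None of the 17 ER chaperones and unfolded protein response genes passed it, and the highest was Dnajb9 (log2 0.43, 0.25 to 0.62), an ER J-domain protein. Hsp90b1, the ER HSP90, had 0.16 (0.08 to 0.25), and the lectin chaperones Canx and Calr 0.17 and -0.01. Among 13 subunits of the cytosolic chaperonin CCT and of prefoldin, 0 passed and the median was -0.10, with Pfdn5 at 0.01, Pfdn2 at -0.10 and Cct4 at -0.08. Of 3 mitochondrial chaperones and proteases with enough UMIs, Clpp, a matrix protease, was lower (log2 -0.61, -1.06 to -0.17), and Hspa9, the mitochondrial HSP70, had 0.10. The metallothioneins Mt1 (0.19) and Mt2 (0.49) stayed inside too. The 8 chemokine and cytokine genes had larger folds, and all 8 passed upward, led by Tnf (log2 2.75), Cxcl1 (2.42) and Cxcl2 (2.39). Of 6 MHC class II genes 4 passed downward and of 8 cell cycle genes with enough UMIs 4 did, among them H2-Eb1 (-1.28) and Ube2c (-1.28).

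Chaperones were also compared between cells grouped by these other programmes, by mitochondrial share and by depth. In the 205 cells with most cell cycle UMIs, which had a median depth of 3890 against 3234 in the rest, Hspa1a stood at 0.323 against 0.742 UMIs per 10000 (log2 -1.20, -1.81 to -0.64), Hspa1b at 0.575 against 1.10 (-0.94, -1.39 to -0.52) and Hspa5 at 5.07 against 8.17 (-0.69, -0.83 to -0.55). These 3 of the 10 passed the limit downward, as did 3.38% of 4293 genes. Hsp90aa1 was on the other side, at 6.09 against 5.26 (log2 0.21, 0.07 to 0.34). The summed immediate-early level of these cells was 54.3 against 59.2.

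In the 205 cells with most chemokine and Tnf UMIs, Hspa1a had a log2 fold of 0.62 (0.26 to 0.97) and was the 1 member of 10 past the limit upward, as were 2.21% of 4293 genes. Hspa1b had 0.33 (0.02 to 0.64), Hspa5 0.25 (0.14 to 0.37), Hspa8 0.17 (0.09 to 0.25) and Hspe1 -0.19 (-0.37 to -0.02). Summed immediate-early level was 93.9 against 54.3 UMIs per 10000 in these cells, so the 2 measures go together. In the 384 cells above 5% mitochondrial UMIs, at a median of 2685 UMIs against 3403, Hspa5 was at 9.81 against 7.43 (log2 0.40, 0.31 to 0.50) and Hspe1 at 3.80 against 4.44 (-0.23, -0.37 to -0.08). Hspa1a (0.29, -0.05 to 0.62) and Hspa1b (-0.16, -0.46 to 0.14) had intervals that included 0. In this split 0 of 10 members passed the limit, while of 4289 genes 80 passed it upward and 74 downward.

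In the 205 cells with most MHC class II UMIs, Hspa1b was lower, at 0.642 against 1.09 UMIs per 10000 (log2 -0.76, -1.21 to -0.34), and was the 1 member of 10 past the limit downward, as were 3.73% of 4295 genes. Hspa1a had -0.09 (-0.54 to 0.33) there, and Hspd1 had -0.39 (-0.70 to -0.09). In the 205 deepest cells, Hspa1a stood at 0.957 against 0.634 UMIs per 10000 (log2 0.59, 0.29 to 0.89) and was the 1 member past the limit upward, as were 0.884% of 4301 genes. Hspa1b had 0.13 (-0.13 to 0.39) in the deepest cells. In the 205 cells with most metallothionein UMIs, 0 of 10 members passed the limit, while of 4299 genes 59 passed it upward and 148 downward. There Hspa1b had 0.47 (0.15 to 0.78) and Hspa1a -0.13 (-0.61 to 0.32). Summed immediate-early level was 70.8 against 57.3 UMIs per 10000 in these cells.

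**Figure D5:**
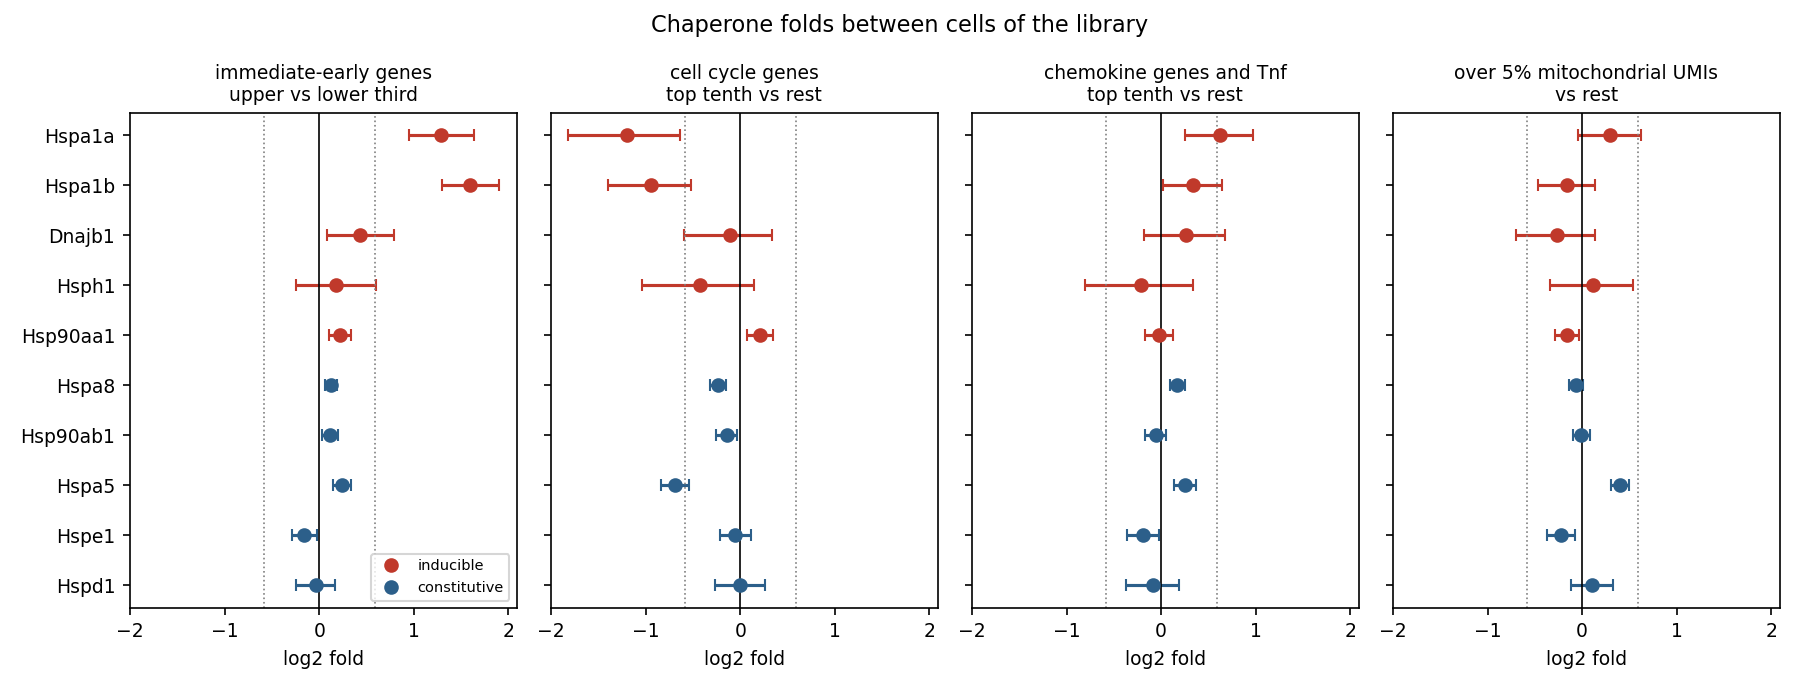
Log2 fold of each chaperone with 95% counting interval between IEG-high and IEG-low cells and, for 3 other splits, between the cells named above each panel and the rest; dotted lines mark 1.5-fold. Hspa1a and Hspa1b lie past the right line in the first panel (1.29 and 1.60) and past the left line in the second (-1.20 and -0.94), together with Hspa5 (-0.69).

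Outside the chaperones, the genes most like each sum over cells were ranked among 4013 genes detected in at least 10% of cells, by Pearson r of log values over 2055 cells. Hmox1, the heme oxygenase of the oxidative stress response, came first for both, with r = 0.179 for the inducible and 0.132 for the constitutive sum. For the inducible sum it was followed by Chka (0.141), Fos (0.130), Ccl3 (0.119), Dusp1 (0.118), Hnrnpab (0.115), Lmna (0.114), Chchd2 (0.110), Cdkn1a (0.109) and Cd44 (0.103). For the constitutive sum the genes after it included Ctss (0.131), Ear1 (0.123), Hsp90b1 (0.122), Ear2 (0.120), Calr (0.118), Vimp (0.114), Dusp1 (0.110) and Fabp1 (0.109). Hsp90b1 and Calr, 2 ER chaperones, were on the constitutive list, and the immediate-early genes Fos and Dusp1 on the inducible one, with Dusp1 on both. All these values are low, and no function or control is read from them.

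Sequence shared with other genes limits some levels. In the last 300 bases of Hspa8 transcripts, 63.5% of 98-base sequences also occur in another gene, among them Gm15459, and the shares were 27.9% for Hspd1 (with Hspd1-ps3), 23.7% for Hsp90aa1 and 4.93% for Hspe1. The other 6 members shared none. Reads from such stretches can be assigned to the copy or dropped, so the levels of these 4 genes are uncertain.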

How the data were processed

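Single-cell RNA-seq of AMs from 1 Hdac3fl/fl mouse was analysed; the Hdac3-deficient library was not analysed here. Per the methods of the study, the authors aligned the reads to mm10 with Cell Ranger, filtered cells and genes, and log-normalized with Seurat. The authors deposited 2 sets of values: natural log (ln) values of 1 plus UMIs per 10000 UMIs, and a score regressed on UMIs and mitochondrial content and scaled per gene. UMI counts were recovered from the log values (100% whole within 1e-06). The score served as an alternative only. No doublet caller was run.

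Levels have exact Poisson intervals, shares exact Clopper-Pearson intervals and folds exact conditional binomial intervals, all at 95%. Dispersion is the moment estimate of the negative binomial dispersion with the cell total as offset. Thinning drew 1500 UMIs per cell without replacement; 109 shallower cells were left out. With 1 library there is no test. The code was tested on simulated data.

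The members and lists were chosen with earlier results of these data known. The text names all members, of each list the 3 genes with most UMIs and up to 4 past 1.5-fold (not all printed for lists outside the chaperones), and the 10 genes most correlated with each sum. Some genes that these rules select are not reported here. Further genes of a list and the comparisons within depth were chosen after values were seen. So were the splits by cell cycle, chemokine, MHC class II, metallothionein and mitochondrial level and by depth. Promoters came from RefSeq, and gene positions and transcript sequences from GENCODE, both on GRCm38. Python 3.11.15, numpy 2.4.6, scipy 1.17.1, pandas 2.3.3 and matplotlib 3.10.9 were used.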

Additional observations from a re-analysis of the deposited data

How the results depend on the processing

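No paired analysis was possible because there is 1 library. Of 285 values recomputed under alternatives, 221 stayed within their interval and 64 moved. This was the counting interval for folds and shares, and 1.5 times for counts and dispersions. For correlations it was an interval from the number of cells, which takes cells as independent though they share 1 library. A change of sign was counted only for the group folds, their difference, the correlations and the immediate-early folds of Hspa1a and Hspa1b. Of these 0 changed sign, while other values could change sign without being counted. Hspa1a and Hspa1b were the 2 members past 1.5-fold between IEG-high and IEG-low cells under all 10 alternatives, with log2 folds from 0.60 to 1.64 and from 1.22 to 1.76. The fold of the inducible sum (log2 0.48) was 0.39 with all cells split at the median immediate-early level, 0.33 with cells thinned to 1500 UMIs and 1.02 with Hsp90aa1 left out or counted as constitutive. Its difference from the constitutive fold (log2 0.38) was 0.26 when thinned, 0.90 with Hsp90aa1 as constitutive and 0.91 with it left out. The 171 genes past 1.5-fold upward became 66 with that split, 93 with AP-1 and Egr genes only, 70 and 56 with cells thinned to 1500 and 1000 UMIs, 494 with genes of at least 50 UMIs and 1683 with no filter. Thinned to 1500 UMIs, the median r of constitutive pairs was 0.0159 (0.0641 as reported) and the r of the inducible with the immediate-early sum 0.0776 (0.143 as reported).

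The folds of Dnajb1 (-0.26 to 0.46), Hsph1 (-0.43 to 0.33), Hspe1 (-0.18 to 0.02) and Hspd1 (-0.12 to 0.23) changed direction between alternatives, and the cause was not tested. Between cells with and without HSP70, Hspd1 ranged from -0.03 to 0.52 and Hspa5 from -0.02 to 0.30. At the median of 3278 UMIs, a count of 0 allows up to 0.0915% of a cell's UMIs, so a cell with no UMI of a rare chaperone is not shown to lack it. The library is 1 mouse, so nothing here measures spread between mice.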
